A study of Mus with 3 samples.

Results

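The cells described here were CD8 T cells from tumors of RARα-KO mice, divided by how many cells shared their T cell receptor. Of the 5600 barcodes with 500 or more gene UMIs (unique molecular identifiers, each standing for 1 captured RNA molecule) in the pooled library, 2238 carried the RARα-KO hashtag at 10 or more UMIs and at 3 or more times the next hashtag, and 1529 of those also had a clonotype, the group of cells to which the receptor assembly had given the same receptor chains. Requiring at least 1 Cd8a UMI and 0 Cd4 UMIs left 1039 cells in 177 clonotypes. Members were then chosen by clonotype size, counted over all RARα-KO barcodes with 500 or more UMIs whether or not they passed the CD8 gate: 736 cells belonged to 26 expanded clonotypes of 10 or more cells, and 96 cells were the only cell of their clonotype. Clonotype size and the levels of Cd8a and Cd4 are therefore what selected these cells and are given only as a description.

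The tumors, from the mouse colon carcinoma line MC38, were collected at day 16, with 3 genotypes compared: WT, RARα-KO and RARα-TG. In the RARα-KO mice a Cre driven by the distal Lck promoter, which is active in T cells of both the CD4 and the CD8 lineage, removes floxed Rara (dLck-Cre with Rara L/L), and RARα-TG mice carry Rara under the CD2 promoter (CD2-Rara). Sorted T cells (30000 CD45.2+ CD3+ cells per genotype) and 10000 cells of the whole suspension were hashtagged by genotype and pooled into 1 library, so each genotype is 1 sample. The number of mice behind each hashtag is not given in the sources used here, and the sample labels also name spleen, naive CD8 T cells and stimulation with anti-CD3/28 and IL-2, which do not describe a tumor suspension. With 1 sample per genotype there is no replicate spread, so no test was made and every interval below is a 95% interval that covers counting error only.

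When a naive CD8 T cell meets its antigen it divides, and all of its descendants keep the rearranged receptor genes of the founder. Many cells with the same receptor in a tumor therefore mark a clone that has expanded, while a receptor seen in a single cell can belong to a small clone, to a bystander cell, or to a clone of which only 1 cell was captured. Expanding CD8 T cells switch on granzymes and perforin, the proteins with which they kill, raise glycolysis, gain inhibitory receptors under lasting stimulation and lose TCF1, the transcription factor encoded by Tcf7 that keeps naive and memory cells able to renew.

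The receptors of the expanded clonotypes had features in common that their size did not select. TRBV16 was the beta V gene of 16 of the 26 expanded clonotypes (61.5%, 95% Clopper-Pearson interval 40.6% to 79.8%) and of 21 of the 89 single-cell clonotypes with a beta chain (23.6%, 15.2% to 33.8%). The alpha J gene TRAJ22 was used by 13 of the 24 expanded clonotypes with an alpha chain (54.2%, 32.8% to 74.4%), 12 of them with TRBV16, against 9 of 61 single-cell clonotypes (14.8%, 6.98% to 26.2%). Clonotypes of 2 to 9 cells lay between, with TRAJ22 in 19 of 52 (36.5%). The CDR3 regions, the parts of the chains that touch the antigen, are shown for 5 clonotypes, among them the 3 largest with both TRBV16 and TRAJ22. In the alpha chains the capitals mark the 26 bases at the 3′ end that all 13 TRAJ22 alpha chains of expanded clonotypes shared, and in the TRBV16 beta chains they mark the part after the 9 bases common to all TRBV16 chains of expanded clonotypes.
clonotype 1 (125 cells) alpha: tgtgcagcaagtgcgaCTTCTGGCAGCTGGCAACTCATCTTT
clonotype 3 (86 cells) alpha: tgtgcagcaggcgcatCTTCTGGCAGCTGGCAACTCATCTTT
clonotype 4 (84 cells) alpha: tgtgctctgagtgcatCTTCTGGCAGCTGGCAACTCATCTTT
clonotype 21 (23 cells) alpha: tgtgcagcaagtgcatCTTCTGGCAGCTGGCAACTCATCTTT
clonotype 1 beta: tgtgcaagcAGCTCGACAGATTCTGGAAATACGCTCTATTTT
clonotype 3 beta: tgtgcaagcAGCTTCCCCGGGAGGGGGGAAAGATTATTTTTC
clonotype 4 beta: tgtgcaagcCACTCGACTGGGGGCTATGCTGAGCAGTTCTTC
clonotype 13 (31 cells) beta: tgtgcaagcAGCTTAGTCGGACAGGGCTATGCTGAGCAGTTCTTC

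The alpha chains differed in only a few bases before the shared end, whereas the beta chains differed along their whole middle. The 13 clonotypes held 8 distinct alpha sequences but 13 distinct beta sequences, and 12 of the 13 alpha sequences were 42 bases long. The alpha sequence of clonotype 4 was found base for base in clonotypes 13, 18 and 20, each with another beta chain, and that of clonotype 21 recurred in clonotypes 34 and 49. In clonotype 20, 18 of 21 CD8 cells had 2 or more beta chains, and its beta sequence was the leading one in 16 of 24 cells. The alpha sequence was the leading one in 8 of 16 cells of clonotype 34 and 8 of 11 of clonotype 49. The same 26-base end was present in the alpha chains of all 9 single-cell clonotypes with TRAJ22. Every RARα-KO CD8 clonotype with TRAJ22 had it, so the shared end goes with the J gene and is not particular to expanded clonotypes. In WT CD8 cells TRAJ22 was seen in 0 of 20 expanded clonotypes (interval 0% to 16.8%) and in 3 of 94 single-cell clonotypes, and among CD4 cells it was used by 13 of 140 RARα-KO, 3 of 147 WT and 9 of 176 RARα-TG clonotypes.

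**Figure D1:**
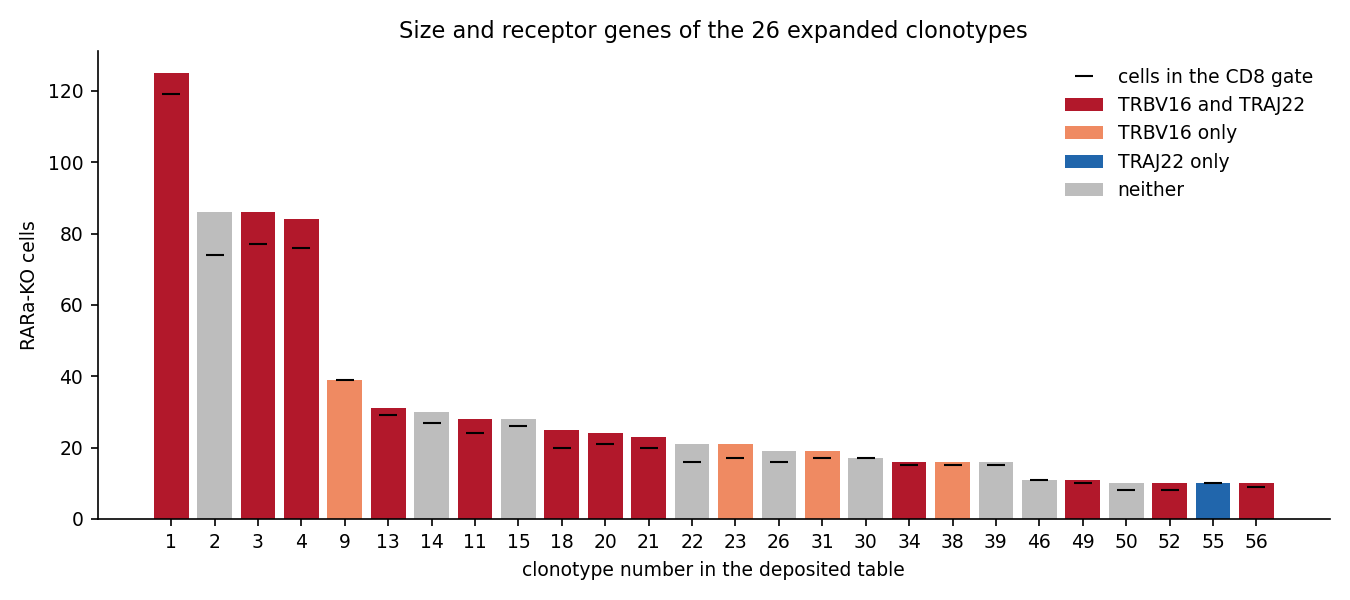
Bars give the RARα-KO cells of each expanded clonotype, numbered as in the deposited receptor table, and black marks the cells inside the CD8 gate. Color gives the receptor genes: 12 clonotypes, among them the largest with 125 cells, used TRBV16 and TRAJ22 together.

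The 4 clonotypes of 84 to 125 cells held 346 of the 1039 cells (33.3%), and 22 clonotypes of 10 to 49 cells held 390 (37.5%). Clonotypes of 5 to 9 cells held 124 cells in 20 clonotypes, clonotypes of 2 to 4 cells held 83 cells in 35, and the 96 single cells made up 9.24% of the cells (7.55% to 11.2%). Next to the threshold, the 4 clonotypes of 9 cells that were left out had a Gzmb level of 6085 CPM (UMIs per 1000000 gene UMIs) over 33 cells, and the 4 clonotypes of 10 cells that were included had 3225 CPM over 35 cells. Around the hashtag rule, 14 cells with a ratio of 3 to 4 to the next hashtag were in and 15 with a ratio of 2 to 3 were out.

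Receptor chains were read less completely in the single cells. No productive alpha chain was found in 35 of the 96 single cells, against 104 of the 736 expanded cells. For 26 single cells the leading beta CDR3 was also found in another RARα-KO clonotype, and for 10 it was that of a cell in an expanded clonotype, 9 of these without an alpha chain. Clonotypes 23 and 50 had no alpha chain at all and carried the same beta CDR3 as clonotypes 4 and 22, so the 26 expanded clonotypes had 24 distinct leading beta sequences. Whether such cells belong to the larger clone was not tested, and results that move without them are given below.

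Single cells were shallower, with a median of 3979 gene UMIs (range 1343 to 34597) against 5516 (1463 to 38949) in expanded cells, and with medians of 1653 and 1930 genes. The 2 deepest single cells held 11.04% of the group's 559115 UMIs. The median mitochondrial share was 0.862% in single and 0.861% in expanded cells, and no cell of either group was above 10%. Cd3e, which the gate did not use, was at 1347 CPM in expanded and 1003 CPM in single cells. The gate fixed Cd8a as present (1039 and 921 CPM) and Cd4 as 0. Defining RNAs of γδ T cells came to 0 UMIs in expanded and 1 UMI in single cells, and Ncr1 of NK cells was at 0 in both. The 5 listed NK cell markers, Ncr1 and Eomes among them, summed to 76.4 CPM in expanded and 113 CPM in single cells.

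Rara, the targeted gene (chromosome 11, 98927800 to 98974942, GRCm38.p6), was read at 80.0 CPM (72.3 to 88.2; 403 UMIs) in expanded cells and 53.7 CPM (36.2 to 76.6; 30 UMIs) in single cells, a log2 ratio of 0.58 (0.04 to 1.16). Reads of a 5′ library do not show whether the floxed exon is gone, so this level does not check the deletion. Per the paper, T cells of this line still make a Rara transcript from which an exon is missing. By clonotype it ran from 26.6 to 170.1 CPM, and 20 of the 26 expanded clonotypes lay above the single cells. Of the 15 genes of retinoid binding, synthesis and breakdown that were listed, only Rara and Rxrb passed the filter on low values, and Rxrb had a log2 ratio of -0.38 (-1.08 to 0.40).

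Among the 6749 genes that reached 0.1 UMIs per cell in at least 1 group, the expanded cells differed from the single cells in a limited set. A log2 ratio of 1 or more was found for 154 genes (2.28%) and of -1 or less for 211 (3.13%), with a median of -0.07 over all genes. The interval lay above 0 for 367 genes (5.44%) and below 0 for 716 (10.6%). Many of these calls rested on very few cells: in 34 of the 154, 5 cells held over 50% of the UMIs of the expanded group, and in 81 of the 211, 3 cells held over 50% of those of the single group. With every clonotype weighted equally, 296 genes (4.39%) were past the higher and 281 (4.16%) past the lower threshold, and these included 125 of the 154 and 136 of the 211.

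A stricter view came from the 26 expanded clonotypes one by one. Only 4 genes (0.0593%) lay above the single-cell level in all 26, namely Pgk1, a glycolytic kinase, Ybx3, an RNA-binding protein, and Plp2 and Leprotl1, which encode membrane proteins. Below it in all 26 were 42 genes (0.622%), among them Tcf7. Of these 42, 22 had 100 or more UMIs over both groups. A level set by few cells can place a gene here, as for Slpi, whose 58 single-cell UMIs were in 1 cell. Of the 4 genes above the single cells in all clonotypes, Pgk1 is a member of a list and the other 3 were named after their values were seen.

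**Figure D2:**
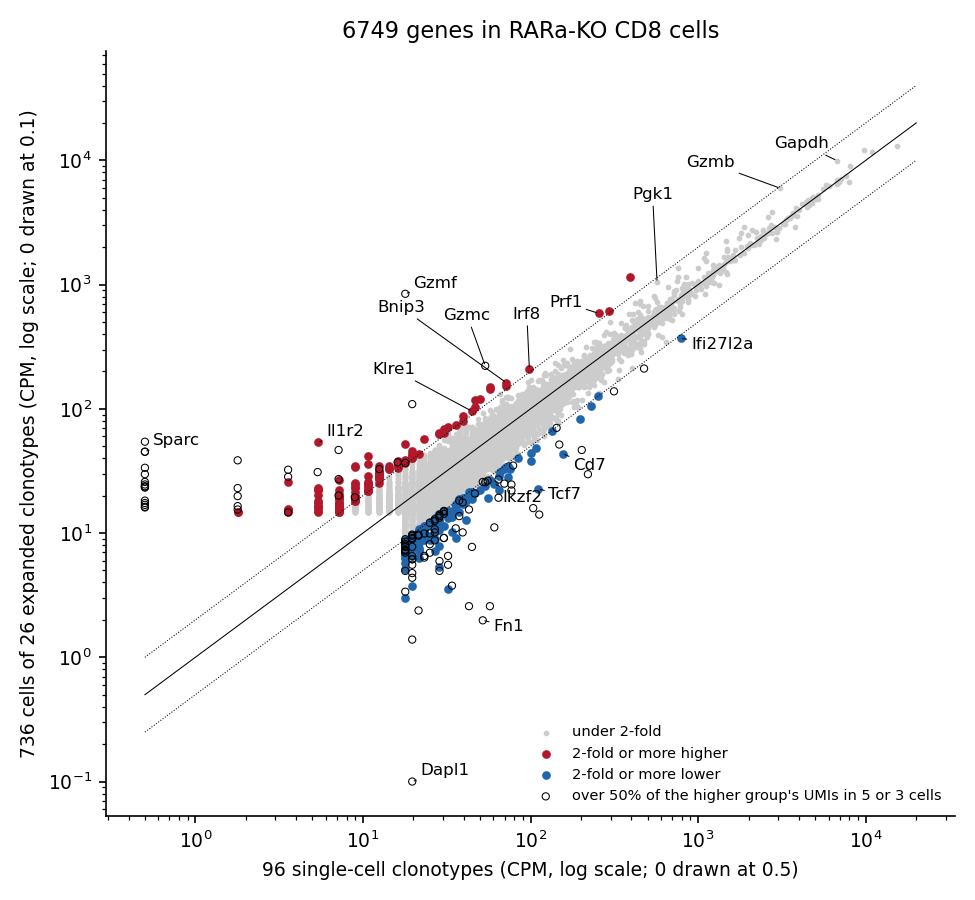
Each point is 1 of 6749 genes, with its level in the 96 single cells on the x axis and in the 736 expanded cells on the y axis (CPM, log scales); dotted lines mark a 2-fold difference and open circles mark called genes of which over 50% of the higher group's UMIs sat in 5 expanded or 3 single cells. Tcf7, Cd7 and Ifi27l2a lie under the lower line, and Gzmf and Sparc are among the open circles.

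Of 16 genes of the cytotoxic granule, 8 had intervals above 0 and 3, all granzymes, below 0, against 5.44% and 10.6% of all genes. Gzmb, the main granzyme of effector cells (chromosome 14, 56258836 to 56262334), was at 5970 CPM (5902 to 6038) in expanded and 3083 CPM (2940 to 3233) in single cells, a log2 ratio of 0.95 (0.88 to 1.02), and 21 of 26 clonotypes were above the single cells. It ranged among the clonotypes from 1640 to 11011 CPM with a median of 5796. The low end was held by clonotypes 56 (1640 CPM) and 23 (1939 CPM), which thus fell below the single cells. Of the expanded cells 87.6% (85.0% to 89.9%) and of the single cells 68.8% (58.5% to 77.8%) had a Gzmb UMI, against 7.08% of 240 RARα-KO myeloid barcodes at a median of 14786 UMIs, which lack the gene and serve as background. With every cell thinned to 1000 UMIs the shares were 70.9% and 57.3%, so the gap was present at equal depth.

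Prf1, which encodes the pore-forming perforin, stood at 586 CPM against 256 CPM (log2 ratio 1.20, 0.95 to 1.45; above in 20 of 26 clonotypes, range 145 to 1409 CPM). Nkg7, needed for granule release, was above in 25 of 26 clonotypes at a smaller log2 ratio of 0.47 (0.40 to 0.55). Gzma and Gzmk were instead lower in the sum over expanded cells: Gzma was at 985 CPM against 1327 CPM (-0.43, -0.54 to -0.32) and Gzmk at 382 CPM against 494 CPM (-0.37, -0.55 to -0.18), with 10 and 3 clonotypes above. Over the list, 4 of 16 tested genes were called higher and none lower, against 2.28% and 3.13% of all genes. The list median was 0.25, and 0.38 with clonotypes weighted equally.

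The 3 largest ratios in this list belonged to Gzmf, Gzmg and Gzmc of the granzyme cluster on chromosome 14. Not all of the cluster was higher: Gzme had -0.47 (-0.80 to -0.13), with 2 clonotypes above the single cells. Gzmd had 0.74 (0.41 to 1.09), with 6 clonotypes above, and 0.05 (-0.29 to 0.40) without clonotype 9. Gzmf was above the single cells in 16 of 26 clonotypes, Gzmg in 7 and Gzmc in 20, but a pair of clonotypes held 71.1% of the Gzmf and another pair 52.7% of the Gzmc UMIs. Gzmf (56205263 to 56211407) was at 843 CPM in expanded cells (4248 UMIs) and 17.9 CPM in single cells (10 UMIs), a log2 ratio of 5.56 (4.68 to 6.62), the highest of all genes tested. Only 59 expanded cells (8.02%) had a Gzmf UMI and 5 of them held 60.2% of the count, while 3 of 96 single cells (3.13%) had any. The deeper myeloid barcodes had a Gzmf UMI in 3.75%, but at a lower level of 2.91 CPM. Among the clonotypes Gzmf was 0 in 3, had a median of 44.3 CPM and reached 5955 CPM in clonotype 9 and 7150 CPM in clonotype 14. Without those 2 clonotypes the level was 269 CPM and the log2 ratio 3.91 (3.03 to 4.98). Gzmc was at 222 CPM against 53.7 CPM (2.05, 1.53 to 2.62), with clonotypes 22 (1385 CPM) and 9 (1307 CPM) highest, and at 1.101 (0.57 to 1.68) without both. Gzmg, with 274 UMIs in 12 expanded cells and none in single cells, was 10.1-fold higher with the single group set to a floor of 3 UMIs. Its log2 interval began at 3.03.

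Clonotypes 9 and 14 were also among the highest in Gzmb, with 8846 and 9170 CPM, and in Prf1, with 1145 and 1223 CPM, and both had 0 Tcf7 UMIs. Ccl4 was low in both (343 and 579 CPM). Both had an alpha chain with TRAJ7, as did clonotype 31, which had 1286 CPM of Gzmf. High Gzmf was not limited to TRAJ7. Clonotype 55, with TRAJ22, had 2355 CPM, and clonotypes 30 (TRAJ40) and 22 (TRAJ32) had 1042 and 1004 CPM. The alpha chains of these 3 clonotypes, which share the J gene, ended in the same 27 bases, shown in capitals.
clonotype 9 (39 cells) alpha: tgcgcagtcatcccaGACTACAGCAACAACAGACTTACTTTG
clonotype 31 (19 cells) alpha: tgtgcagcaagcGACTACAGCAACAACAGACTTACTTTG
clonotype 14 (30 cells) alpha: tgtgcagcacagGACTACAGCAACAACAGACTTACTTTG

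**Figure D3:**
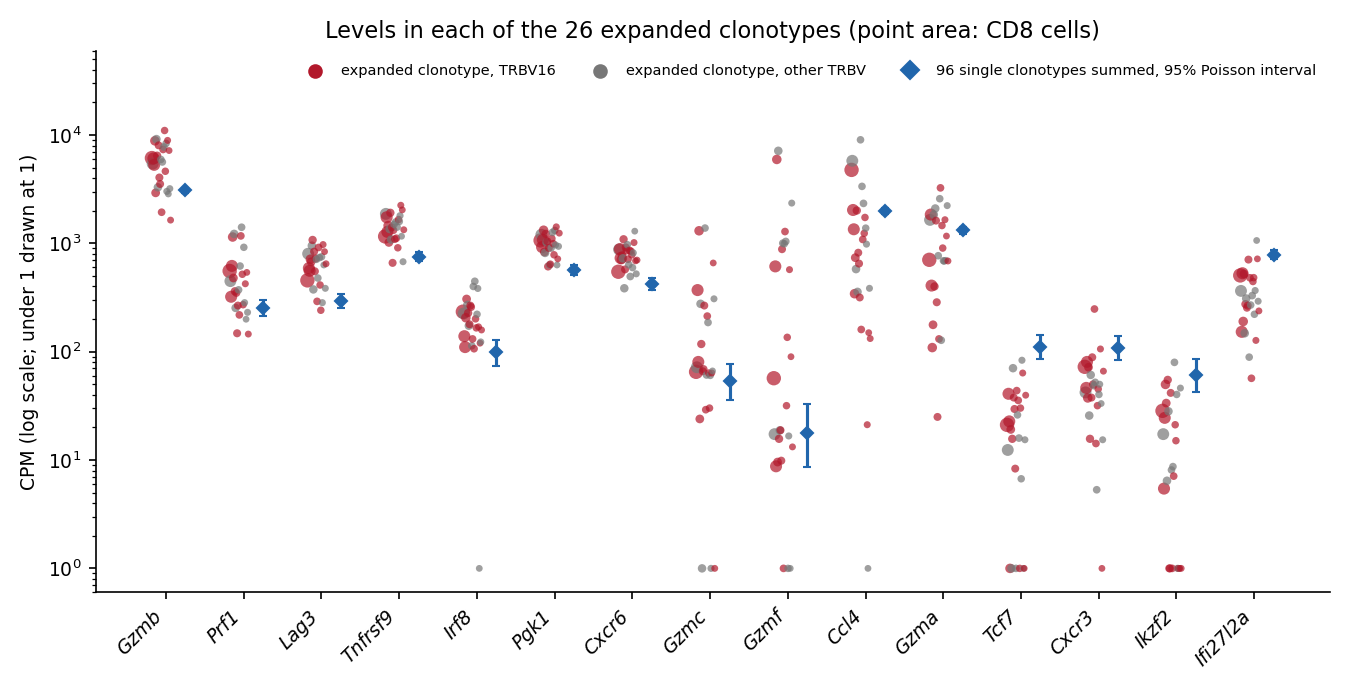
Each colored point is the level of a gene in 1 of the 26 expanded clonotypes (CPM, log scale; values under 1 drawn at 1; area gives the CD8 cells, red marks TRBV16), and the blue diamond is the sum over the 96 single cells with its 95% Poisson interval. All 26 points lie above the diamond for Pgk1 and below it for Tcf7, while the points of Gzmf and Ccl4 lie on both sides of it.

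Of 9 inhibitory receptors, 4 had intervals above 0 and none below, against 5.44% and 10.6% of all genes. Lag3, an inhibitory receptor that binds MHC class II, was at 616 CPM against 295 CPM (log2 ratio 1.06, 0.84 to 1.30) and above in 23 of 26 clonotypes. Havcr2, which encodes TIM-3, was at 304 CPM against 172 CPM (0.83, 0.53 to 1.14; 21 clonotypes), and Tnfrsf9, the costimulatory receptor 4-1BB induced by antigen, at 1367 CPM against 757 CPM (0.85, 0.71 to 0.998; 24 clonotypes). The interval of Pdcd1, which encodes PD-1, included 0 (0.15, -0.05 to 0.36), as did that of Ctla4 (0.08, -0.17 to 0.34). Only Lag3 of the 9 tested inhibitory receptors was past a log2 ratio of 1, against 2.28% of all genes. The list had a median of 0.24. In thinned cells 39.0% of expanded and 19.8% of single cells had a Lag3 UMI.

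Among transcription factors the differences were modest. Irf8, induced by antigen in effector CD8 T cells, was at 211 CPM against 98.4 CPM (1.098, 0.71 to 1.52) and above the single cells in 25 of 26 clonotypes. Id2, a factor that promotes effector differentiation, was at 581 CPM against 386 CPM (0.59, 0.39 to 0.79; 25 clonotypes). Ikzf2, which encodes Helios, was lower at 25.002 CPM against 60.8 CPM (-1.28, -1.84 to -0.69), with only 1 clonotype above. Batf, Tbx21 and Prdm1, which drive effector programs, had log2 ratios of 0.17, 0.06 and -0.26 with intervals that included 0. Of the 15 tested, 2 genes were called, Irf8 higher and Ikzf2 lower, at a list median of 0.17. Calls over all genes were 2.28% higher and 3.13% lower.

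Of 15 genes of naive and memory cells, 7 had intervals below 0 and none above, against 10.6% and 5.44% of all genes. Tcf7 was the most different of them after Dapl1. Tcf7 (chromosome 11, 52246527 to 52283383) was at 22.6 CPM (18.7 to 27.2; 114 UMIs) in expanded and 111 CPM (85.0 to 142; 62 UMIs) in single cells, a log2 ratio of -2.29 (-2.75 to -1.82), and all 26 clonotypes were lower, from 0 to 83.4 CPM. Of the single cells 30.2% (21.3% to 40.4%) and of the expanded cells 9.78% (7.73% to 12.2%) had a Tcf7 UMI, and after thinning 15.6% and 2.17%. Of the myeloid barcodes, a mixed and deeper set, 20.4% had a Tcf7 UMI at 17.7 CPM. The share in expanded cells was below this value and the level slightly above it, and the part of background RNA was not tested. The 29 single cells with Tcf7 came from as many clonotypes by the definition of the group. Without thinning, 11 of them also had a Gzmb UMI, against 66 of all 96 single cells. Among expanded cells it was 47 of the 72 with Tcf7, against 645 of all 736.

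Other genes of this list were lower at smaller ratios. Klf3, a factor of quiescent lymphocytes, was at 32.7 CPM against 69.8 CPM (-1.09, -1.60 to -0.55), Ccr7, the lymph node homing receptor, had a log2 ratio of -0.79 (-1.08 to -0.48) and Bcl2, a survival gene, -0.91 (-1.32 to -0.47). Il7r, the IL-7 receptor of memory cells, had -0.40 (-0.66 to -0.14), and Lef1 -0.29 (-0.73 to 0.18). Klf2 (0.12), Satb1 (0.0072), Foxp1 (0.16), Cd27 (0.15) and Ly6c2 (0.03) had intervals that included 0. Dapl1, a gene of naive-like CD8 cells, had 11 UMIs in 3 single cells and none in expanded cells. It was 33.0-fold lower with the expanded group set to a floor of 3 UMIs, and its log2 interval ended at -4.50. Of the list, 3 of 15 tested genes were called lower and none higher, against 3.13% and 2.28% of all genes. The list median was -0.40, and -0.70 with clonotypes weighted equally.

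Of the 17 tested genes of glycolysis and hypoxia, 13 had intervals above 0 and none below, against 5.44% and 10.6% of all genes, at a median log2 ratio of 0.57 against -0.07 for all genes, and 0.72 with clonotypes weighted equally. Pgk1 was at 1045 CPM against 569 CPM (0.88, 0.71 to 1.05) with its lowest clonotype at 612 CPM, Gapdh at 9966 CPM against 6716 CPM (0.57, 0.52 to 0.62; 24 clonotypes above) and Ldha, which makes lactate, at 2239 CPM against 1458 CPM (0.62, 0.52 to 0.72; 25 clonotypes). Only Bnip3, a mitophagy gene induced by low oxygen, passed a log2 ratio of 1 (1.18, 0.73 to 1.68). The nuclear genes of oxidative phosphorylation showed no such shift, with a median of 0.06 over 23 genes and none called.

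Within the expanded range the size of a clonotype made little difference for these genes. Pgk1 was at 569 CPM in single cells, 1014 CPM in clonotypes of 2 to 4 cells, 1244 CPM at 5 to 9, 1022 CPM at 10 to 49 and 1070 CPM at 50 or more, so the step lay between 1 cell and more. Tcf7 followed the same course downward, from 111 CPM to 34.1, 21.99, 22.2 and 23.04 CPM. Gzmb went from 3083 CPM to 4594, 6100, 6113 and 5816 CPM, and Havcr2 stayed at 172 and 173 CPM up to clonotypes of 4 cells before 306, 310 and 298 CPM. Gzmf followed no order of size, at 17.9, 25.2, 869, 1514 and 123 CPM.

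**Figure D4:**
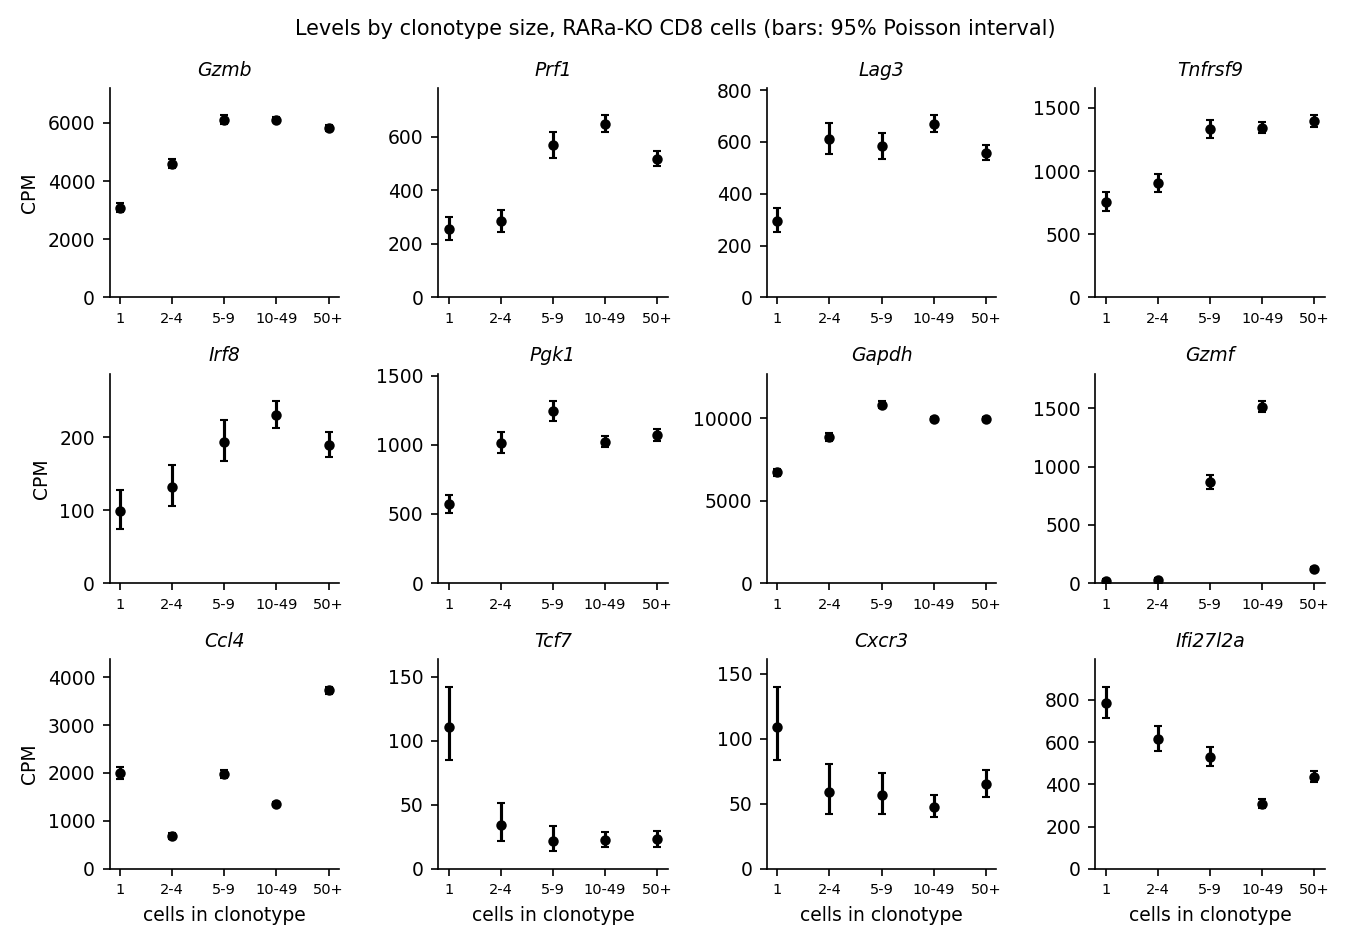
Each panel gives the level of 1 gene (CPM, linear axis from 0) in clonotypes of 1, 2 to 4, 5 to 9, 10 to 49 and 50 or more cells, with 95% Poisson intervals from counting alone. For Tcf7, Pgk1 and Lag3 the largest step is between single cells and clonotypes of 2 to 4 cells, and Ccl4 and Gzmf show no steady course.

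Chemokines and cytokines depended on which single cells were counted. Ccl4, a chemokine that CD8 T cells release on antigen contact, was at 2493 CPM in expanded and 1994 CPM in single cells (0.32, 0.23 to 0.41), and Ccl3 at 584 CPM and 719 CPM (-0.30, -0.45 to -0.15). In the single cells 5 cells held 92.7% of the Ccl4 and 97.5% of the Ccl3 UMIs. The 26 single cells whose beta CDR3 was also in another clonotype had a Ccl4 level of 7461 CPM, 93.4% of it in 2 cells, and the other 70 had 638 CPM. Without the 26, the log2 ratios of Ccl4 and Ccl3 were 1.97 and 1.51, and the median of the list went from 0.30 to 1.25. Xcl1 (1.35, 0.78 to 1.97) and Csf1 (1.25, 0.71 to 1.86), which recruit or feed dendritic cells and macrophages, were called higher, but only 11 and 14 of 26 clonotypes were above the single cells.

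These genes were spread widely over the expanded clonotypes. Ccl4 ran from 0 CPM in clonotype 50 and 21.2 CPM in clonotype 49 to 9040 CPM in clonotype 22, with a median of 902 CPM and 7 clonotypes above the single cells. Clonotypes 1, 2 and 22 held 68.8% of the UMIs, and without them Ccl4 was at 1146 CPM and the log2 ratio turned to -0.80 (-0.90 to -0.70). Without clonotype 1 alone it was -0.10. Ifng ran from 13.2 to 2843 CPM with a median of 166 CPM, and clonotype 22 was again highest. Between clonotypes lay 6.25% of the variance of the summed chemokine and cytokine UMIs (log2 of 1 plus UMIs in cells thinned to 1000), 6.86% of that of naive and memory genes, 5.24% of cytotoxic granule genes and 1.41% of glycolysis genes, and the remainder holds both the spread between cells of a clonotype and counting noise, which were not separated.

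Of 13 interferon-stimulated genes, 6 had intervals below 0 and 1 above, against 10.6% and 5.44% of all genes. In this list 2 were called lower and none higher, against 3.13% and 2.28% of all genes, and the median was -0.43. Ifi27l2a was at 370 CPM against 785 CPM (-1.09, -1.24 to -0.93) with 1 clonotype above, and Rtp4 at 28.2 CPM against 73.3 CPM (-1.38, -1.89 to -0.84) with 3 above, whereas Isg15 had 0.08 (-0.24 to 0.41) and Ly6a, which encodes Sca-1, was above in 23 clonotypes (0.47, 0.35 to 0.59). Of the trafficking genes, Cxcr3, the receptor for interferon-induced chemokines, was at 56.2 CPM against 109 CPM (-0.96, -1.36 to -0.53; 1 clonotype above) and Cxcr6, a receptor of tumor-resident effector cells, at 713 CPM against 420 CPM (0.76, 0.57 to 0.96; 25 clonotypes above). Itgae, which encodes CD103 of tissue-resident cells, was lower at 10.9 CPM against 35.8 CPM (-1.71, -2.47 to -0.90).

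NK-type receptors moved in both directions. Klrc1 and Klrd1, which pair to an inhibitory receptor, were above in 25 of 26 clonotypes (0.56, 0.40 to 0.74 and 0.55, 0.39 to 0.70), and Klre1 was called higher (1.097, 0.52 to 1.74). Cd7 was lower at 43.7 CPM against 156 CPM (-1.83, -2.20 to -1.46; 2 clonotypes above). Il1r2, a decoy receptor for IL-1, was the highest of the cytokine receptors, with 270 UMIs in 72 expanded cells and 3 UMIs in 3 single cells (3.32, 1.76 to 5.61; 20 clonotypes above).

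Cycling genes were not higher in the sum. The median log2 ratio was -0.06 for the S phase list, with no gene called among 16, and -0.34 for the G2 and M phase list. In the latter 2 of 13 genes were called lower, against 3.13% of all genes, namely Cenpe (-1.02, -1.82 to -0.14) and Hmmr (-1.74, -2.57 to -0.84). Both medians changed sign with clonotypes weighted equally, to 0.40 and 0.52. Mki67, a marker of cycling cells, had a UMI in 10 of 96 single cells (10.4%) and 77 of 736 expanded cells (10.5%), and 5 single cells held 78.7% of that group's UMIs. The deeper myeloid barcodes, of which 20.4% had a Mki67 UMI at 95.8 CPM, give no background level for this gene.

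The other lists were those of antigen receptor response (median -0.05, 1 of 15 called), trafficking (-0.02, 1 higher and 1 lower of 16), cytokine receptors (-0.08, 1 of 14), NK-type receptors (-0.27, 1 higher and 2 lower of 10) and immediate early and heat shock genes (-0.26, 1 of 17 called lower, 8 intervals below 0 and 1 above). The called gene of the last list was Fos (-1.52), whose single-cell UMIs were for 97.6% in 3 cells. Over all genes, 2.28% were called higher and 3.13% lower, with 5.44% of intervals above 0 and 10.6% below.

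Genes outside the lists were read from those with 0.5 or more UMIs per cell in either group, of which 18 were called in each direction; these names were chosen after their values were seen. Mt1 and Mt2, metallothioneins that bind zinc, were at 1153 CPM against 392 CPM (1.56, 22 of 26 clonotypes above) and 150 CPM against 57.2 CPM (1.39, 20 clonotypes). Anxa1, an anti-inflammatory annexin, was at 109 CPM against 19.7 CPM (2.47, 23 clonotypes), with 54.4% of its expanded UMIs in 5 cells. Cdk6, a kinase of the G1 phase, had 1.02 and was above in 23 clonotypes. On the lower side were Socs1, an inhibitor of cytokine signaling, at 106 CPM against 231 CPM (-1.13, 2 clonotypes above), Glul, glutamine synthetase, at 48.8 CPM against 107 CPM (-1.14, none above), the interferon-induced GTPase gene Tgtp1 at 38.1 CPM against 100.2 CPM (-1.39, none above) and Cited2 (-1.24, 2 above).

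The 24 genes with the most extreme ratios included many of fibroblasts, matrix and myeloid cells. On the high side stood the fibroblast and matrix genes Sparc, Bgn, Serpinh1, Igfbp4 and Igfbp6 together with Ly6c1, Cd81, Ptgs2, Tec, Il1r2, Gzmf and Gzmg. Sparc had 228 UMIs in 17 expanded cells, of which 5 held 85.5%, and 0 in single cells. On the low side stood the myeloid genes Fn1, Ccl6, Thbs1, Trem2, Arg1, Cxcl2 and Slpi, with Cebpd, Rflnb, Dapl1, Dtx4 and Ighm. Arg1 had 63 UMIs in 3 single cells and Slpi 58 UMIs in 1, so the ratios of such genes described a handful of barcodes. Others were spread over more cells: Il1r2 had a UMI in 72 and Tec in 69 expanded cells, and Ighm in 13 single cells.

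Summed markers of other cell types give their share in the groups. At least 5 UMIs of myeloid, dendritic, B cell and MC38 or stromal markers were found in 17 of 736 expanded (2.31%) and 2 of 96 single cells (2.08%). The 9 myeloid markers summed to 254 CPM in expanded and 241 CPM in single cells, from 52.9 to 957 CPM over the clonotypes, with S100a9 at 0 in both groups and S100a8 at 0 in expanded cells. The 6 MC38 or stromal markers summed to 103 CPM and 7.15 CPM, with Krt8 at 0 in both. Of B cell genes, Ighm had 18 UMIs in each group, which made 3.57 CPM in expanded and 32.2 CPM in single cells. These UMIs were in 16 of 736 expanded and 13 of 96 single cells. Cd79a and Ms4a1 were at 0 in single cells. Without the cells that had 5 or more such UMIs, an alternative added after the data were seen, 153 genes were called higher and 193 lower, and Gzmb, Prf1, Lag3, Irf8, Pgk1 and Tcf7 stayed on their side. The part of mixed barcodes in the stromal and myeloid genes was not tested further.

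The same division of WT cells gave 475 cells in 20 expanded clonotypes and 127 single cells. There, 256 of 6790 genes (3.77%) were called higher and 269 (3.96%) lower. Of 6365 genes tested in both genotypes, 22 were called higher and 32 lower in each. No test of the difference between genotypes was possible with 1 sample of each, so the values stand side by side. Tcf7 was lower in both, at log2 ratios of -2.29 in RARα-KO and -2.86 (-3.31 to -2.41) in WT cells, and Gzmb (0.95 and 1.51), Prf1 (1.20 and 1.47), Lag3 (1.06 and 1.39) and Pgk1 (0.88 and 0.52) were higher in both.

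For other genes the values differed more. Ccl4 was at 255 CPM in expanded and 33.2 CPM in single WT cells (2.94, 2.37 to 3.58), against 0.32 in RARα-KO cells, where both groups were higher. Gzmf was already at 808 CPM in single WT cells and at 2884 CPM in expanded WT cells (1.84, 1.72 to 1.96). Jun and Fos, immediate early genes that also respond to cell dissociation, were at 642 and 225 CPM in single WT cells and 38.5 and 11.6 CPM in expanded WT cells (-4.06 and -4.27), while RARα-KO cells had -0.10 and -1.52. With clonotypes weighted equally Jun and Fos had -1.26 and -2.10 in WT and 0.30 and -0.69 in RARα-KO cells. The naive and memory list had a median of -1.59 in WT against -0.40, with 10 of 16 genes called lower in WT against 3 of 15. Over all genes, 3.96% were called lower in WT and 3.13% in RARα-KO cells. The metallothioneins Mt1 and Mt2 had -0.20 and -0.39 in WT, which turned to 0.98 and 0.73 with clonotypes weighted equally. Anxa1 had -0.58 (-0.84 to -0.31) in WT, which turned to 1.79 with clonotypes weighted equally.

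**Figure D5:**
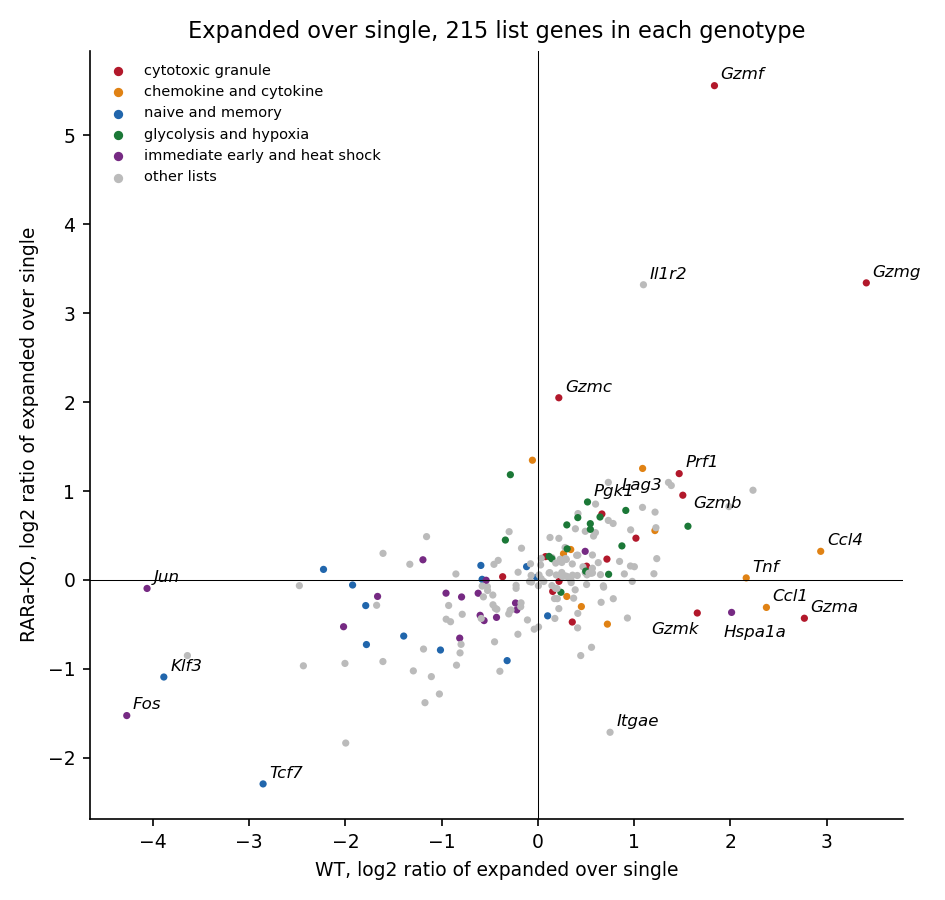
Each point is 1 of 215 list genes tested in both genotypes, with the log2 ratio of expanded over single clonotypes in WT on the x axis and in RARα-KO cells on the y axis. Tcf7, Klf3 and Fos are low in both, Prf1, Lag3 and Gzmb high in both, and Gzma, Gzmk and Hspa1a lie on opposite sides of 0. The RARα-KO value of Gzmg uses a floor of 3 UMIs in place of 0 single-cell UMIs.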

How the data were processed

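Cells were taken from MC38 tumors, hashtagged by genotype and pooled into 1 10x 5′ library. The authors deposited whole-number UMI counts per gene and barcode, with hashtag counts, and a table of T cell receptor contigs; per the labels Cell Ranger 6.1.0 was used with mm10 (GRCm38), while the matrix header names version 4. The unfiltered matrix held 730308 barcodes and 46394322 gene UMIs. Python 3.11.15, numpy 2.4.6, scipy 1.17.1 and pandas 2.3.3 were used. Genotype, clonotype and CD8 gates were as in the text, and doublets were treated only by the hashtag rule. UMIs were summed per group and divided by all gene UMIs (CPM). Log2 ratios have exact binomial intervals, levels Poisson intervals and shares Clopper-Pearson intervals, all covering counting error only, and a count of 0 was set to 3 UMIs. Genes had to reach 0.1 UMIs per cell in at least 1 group, without receptor V, D, J and C genes, and were called at a log2 ratio of 1 or more in size. A symbol given to more than 1 gene was read from the entry with more UMIs. The script was tested on simulated data.

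Genes named are the 12 highest and 12 lowest that kept their side of 0 with clonotypes weighted equally, Rara, Cd8a, Cd8b1, Cd4 and members of gene lists; exceptions are stated. The members and lists were chosen with earlier results of these data known. Gene coordinates come from RefSeq GRCm38.p6 by symbol, found for 6634 of 6749 genes. Some results for single markers and receptor sequences are not reported here.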

Additional observations from a re-analysis of the deposited data

Results flagged for a closer look

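Among the list genes, 3 had intervals on opposite sides of 0 in RARα-KO and WT cells with a log2 ratio of 1 or more in at least 1 of them; the difference between genotypes was not tested. Gzma had a log2 ratio of expanded over single cells of -0.43 (-0.54 to -0.32) in RARα-KO cells, where single cells were at 1327 CPM and 10 of 26 expanded clonotypes were above them, and of 2.77 (2.53 to 3.02) in WT cells, where single cells were at 187 CPM and 15 of 20 clonotypes were above. Gzmk had -0.37 (-0.55 to -0.18; single cells at 494 CPM, 3 of 26 clonotypes above) in RARα-KO cells and 1.66 (1.16 to 2.20; 46.5 CPM, 13 of 20 above) in WT cells. The heat shock gene Hspa1a had -0.36 (-0.63 to -0.09; 10 of 26 clonotypes above) in RARα-KO cells and 2.01 (0.84 to 3.49) in WT cells, the latter from 108 and 6 UMIs, and the RARα-KO and WT values were 0.11 and 0.61 with clonotypes weighted equally, with 10 of 20 WT clonotypes above. Over all settings the RARα-KO values ran from -0.54 to 0.08 for Gzma, from -0.81 to -0.37 for Gzmk and from -1.46 to 0.40 for Hspa1a. For Gzma and Gzmk the expanded levels overlapped between genotypes, with clonotypes from 25.004 to 3254 CPM in RARα-KO and from 16.6 to 5947 CPM in WT for Gzma.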

How the results depend on the processing

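Of 19 other settings, 3 were added after the data were seen, and all left Gzmb (log2 ratios 0.88 to 1.25), Prf1 (1.06 to 1.40), Lag3 (0.95 to 1.33), Pgk1 (0.75 to 1.09), Gzmf (5.04 to 5.93), Gzmc (1.69 to 2.77), Ifi27l2a (-1.65 to -0.90) and Tcf7 (-2.75 to -2.07) on their side of 0. The settings of 1000 or more UMIs per cell and without cells over 10% mitochondrial removed no cell. The setting of 0.5 or more UMIs per cell only left out genes. None of these could move a gene's value. Of 44 called genes followed, 8 changed sign in some setting; 44 values at the floor are not given. The counts of 154 higher and 211 lower genes became 296 higher with clonotypes weighted equally, 55 and 79 in cells thinned to 1000 UMIs (1805 genes tested), 18 and 18 among genes with 0.5 or more UMIs per cell (2119 tested), 291 and 355 without TRBV16 clonotypes, 264 and 438 among cells with both chains, 428 lower with clonotypes defined by beta CDR3 and 368 lower without single clonotypes that shared a beta CDR3. The median of the chemokine and cytokine list became 1.16 and 1.25 in the last 2 settings, 0.78 without TRBV16 clonotypes and 1.40 with both chains, and that of inhibitory receptors 0.55 without TRBV16 clonotypes. The G2 and M phase median turned to 0.52 with clonotypes weighted equally, and that of naive and memory genes to 0.0072 among genes with 0.5 or more UMIs per cell, which leaves out low genes such as Klf3. Called genes that turned were Spry1 (0.12 weighted equally, 1.07 without TRBV16), Sparc (-0.31 by beta CDR3), Fos (0.0071 without shared beta chains), Cxcl2 and Slpi (4.06 and 0.42 without TRBV16; 2.89 and 1.40 without the 2 deepest single cells, where Trem2 was at 0.24), Fcer1g (0.23 without cells with a UMI of 5 myeloid markers, 0.29 without those with 5 or more UMIs of other cell types) and Serpinh1 (-1.59 in the latter). Of genes that were not called, Ccl3, Ccl4, Egr1, Gzma, Hspa1a, Ifng and Mki67 also changed sign in some setting, with ranges of -0.76 to 1.51, -0.10 to 1.97, -1.04 to 0.79, -0.54 to 0.08, -1.46 to 0.40, -0.10 to 1.56 and -0.86 to 0.27. Single cells were 6.54% of cells with clonotypes by beta CDR3 and 6.91% without shared beta chains, with TRBV16 in 13.4% and 14.3% of single clonotypes, and the 10-fold hashtag rule left 67.9% of cells in expanded clonotypes. The cause of these shifts was not tested. No paired analysis was possible because there is 1 library and no replicate numbers are shared between groups. The 559115 UMIs of the single cells set the precision: a gene at 10 UMIs there has an interval of about 8.58 to 32.9 CPM.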

Other observations

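Values of the 2 pairs of expanded clonotypes that shared a beta CDR3 are given here; they were looked at after the data were seen. Clonotype 4 (76 CD8 cells, all with an alpha chain, median 6604 UMIs) had 5307 CPM of Gzmb, 1350 CPM of Ccl4 and 80.5 CPM of Cxcr3, and clonotype 23 (17 CD8 cells, none with an alpha chain, median 3503 UMIs) had 1939 CPM, 160 CPM and 248 CPM. Clonotype 22 (median 6195 UMIs) had 5953 CPM of Gzmb and 9040 CPM of Ccl4, and clonotype 50 (median 4113 UMIs) had 2859 CPM and 0. In each pair the clonotype without an alpha chain was the shallower and had less Gzmb.

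Cells with 2 or more productive beta chains were unevenly spread: 70 of the 736 expanded cells had them against 2 of the 96 single cells, and 21 were in clonotype 4, 18 of 21 cells in clonotype 20 and 16 in clonotype 1.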
